A study of Homo sapiens with 8 samples.

Results

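The genes of plasminogen activation were examined in A549 cells, a human lung adenocarcinoma line. The 8 genes were taken by symbol from the table of read counts, which holds 60664 genes, and their identifiers were matched to symbols through the GENCODE 44 annotation. They are the plasminogen activators PLAU (urokinase) and PLAT (tissue-type activator), the urokinase receptor PLAUR, the inhibitors SERPINE2 and SERPINB2, and 3 genes of plasminogen docking at the cell surface, S100A10, ANXA2 and PLGRKT. Of the 8, 7 had at least 1 count in some library. SERPINB2 had 0 counts in all 8 libraries and was not measured.

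Plasminogen circulates as an inactive precursor, and urokinase or tissue-type activator cuts it into plasmin, a protease that digests fibrin and parts of the extracellular matrix. Cells concentrate the reaction at their surface. Urokinase is held by its receptor, while plasminogen binds proteins with exposed lysine ends, among them S100A10, which sits in a complex with annexin A2, and the transmembrane receptor encoded by PLGRKT. Serpins such as protease nexin-1 (SERPINE2) and PAI-2 (SERPINB2) trap the activators. In lung tumor cells the system has long been studied for its part in invasion.

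The study asked how AX-0085, a designed kinase inhibitor candidate, alters the response of A549 cells to interferon-γ (IFN-γ). Polyadenylated RNA was sequenced from 8 libraries, 2 in each of 4 groups. The untreated group received neither agent, the IFN-γ group received 20 ng IFN-γ (the labels give no volume), the AX-0085 group received 0.5 μM AX-0085, and the last group received both. AX-0085 was added 24 h after IFN-γ, and RNA was taken another 24 h later. All libraries come from the same line, no group carries a genetic change made for the study, and no vehicle treatment is named in the labels. Within a group the labels do not say whether libraries came from separate cultures, so the p-values measure only the spread between these libraries, which may be technical. With 2 libraries against 2, an exact permutation test cannot go below p = 0.333, so differences were judged with the quasi-likelihood test of edgeR, which shares its estimate of the spread across genes. Its p-values were adjusted over all tested genes after Benjamini and Hochberg, and SE is the standard error of a log2 value.

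Total counts lay between 20672828 and 29978251 per library, and a floor of 3 counts stands for 0.100 to 0.145 CPM (counts scaled to library size). This floor covers counting error only. Mitochondrial genes took 1.71% to 5.73% of the counts. All 7 genes listed as markers of A549 epithelium (KRT8, KRT18, KRT19, CDH1, NQO1, AKR1B10 and ALDH1A1) were present, with at least 184 counts in each library. Of 10 markers of leukocytes, endothelium and fibroblasts, 7 had at most 10 counts in every library, and 1 of these, CD3E, was at 0. Above that were COL1A1 (71 to 267 counts), CD14 (1 to 158) and COL3A1 (0 to 17). The summed level of the A549 list lay between 21749 and 22311 CPM in untreated libraries, 14129 and 14741 with IFN-γ, 19405 and 20151 with AX-0085, and 16648 and 16796 with both. The summed level of the other list was lower with IFN-γ as well, at 3.26 to 4.81 CPM against 14.9 to 17.6 CPM in untreated libraries. Most of that sum was COL1A1 (means 9.69 CPM untreated and 3.59 with IFN-γ) and CD14 (5.61 and 0.107). In the A549 list, 6 genes were lower with IFN-γ and 1, ALDH1A1, was not (means 7479 CPM untreated and 8403 with IFN-γ). The sums of both lists moved with the results given for IFN-γ, and their part in those results was not tested. In bulk RNA, fewer cells of a kind and less RNA per cell cannot be told apart.

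Urokinase, the activator that binds PLAUR, could hardly be measured in this count table. PLAU had 18 and 13 counts in the untreated libraries, 2 and 5 with IFN-γ, 8 and 1 with AX-0085, and 10 and 1 with both. It lies at chr10:73909177-73917496 (GRCh38, plus strand), and 96.0% of its annotated exon bases fall within the span of C10orf55, a gene of the minus strand at chr10:73909969-73922777. All 2343 exon bases of its main (MANE Select) transcript lie in that span, and only 118 of 2949 annotated exon bases lie outside it. Low counts in such genes were seen across the table. Of the 832 protein-coding genes with 90% to under 100% of their exon bases inside another gene, as in PLAU, 36.4% had 0 counts in all libraries and the median summed count was 5. Among those with every exon base inside an opposite-strand gene but in none of its exons, 571 of 590 (96.8%) had 0 counts, against 14.9% of the 8779 protein-coding genes with no exon base inside another gene. The counts of PLAU are therefore given as counts of its row, not as the level of urokinase mRNA.

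**Figure D1:**
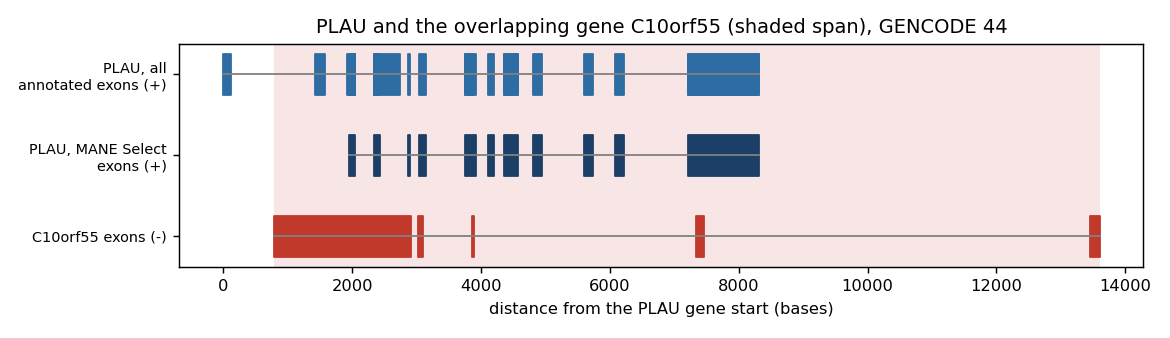
Map of PLAU and C10orf55 in GENCODE 44, with the distance from the PLAU gene start in bases on the x axis. Boxes are exons and the shaded band is the span of C10orf55. Only the first annotated exon of PLAU, which is no part of its MANE Select transcript, lies outside the band.

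In the map of the PLAU locus, the first annotated exon of 118 bases stands alone to the left of the C10orf55 span, and the 11 exons of the MANE Select transcript stand inside it. SERPINB2, which encodes the intracellular inhibitor PAI-2, lies at chr18:63871692-63903888 on the plus strand. Of its exon bases, 53.3% lie inside an unnamed gene of the same strand, and 446 of the 1906 bases of its main transcript lie outside any other gene. Its 0 counts in 8 libraries allow a level of at most 0.100 to 0.145 CPM for the reads this table assigns to it. The exon bases of the other 6 genes lie in no other annotated gene.

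The 2 libraries of each group were close for most of these genes, as the plot of CPM by library shows. PLAU is the exception, with 8 and 1 counts in the AX-0085 libraries.

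**Figure D2:**
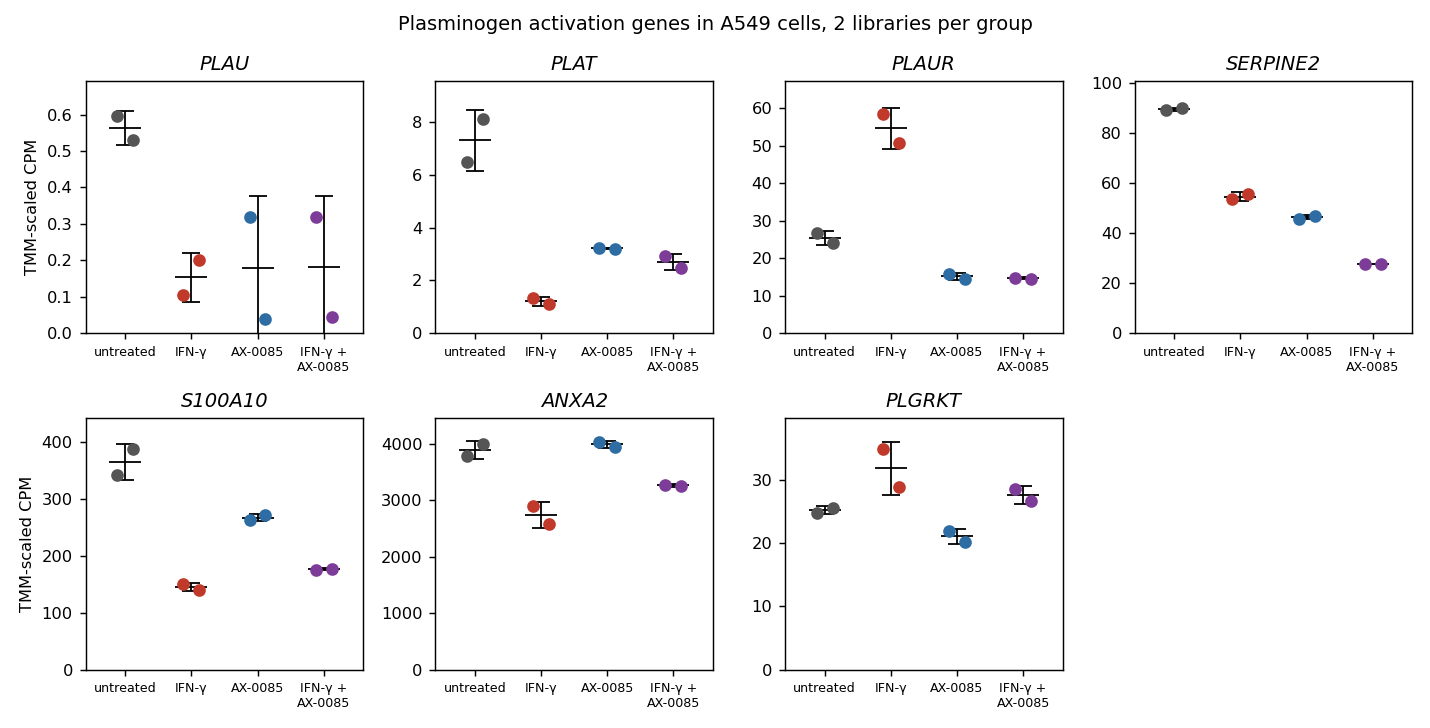
CPM scaled with TMM factors (y axis, linear from 0, a separate scale for each gene) in the 4 groups. Each point is 1 library, and the dash and bars give the mean and SD of 2 libraries, with bars cut at 0. PLAT and S100A10 are highest in untreated cells, PLAUR is highest with IFN-γ, and the PLAU points rest on 1 to 18 counts.

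PLAT was the activator that could be followed, and it was lowest with IFN-γ. The gene encodes tissue-type plasminogen activator and lies on chromosome 8 (42174718 to 42207709, minus strand). Its level was 6.48 and 8.15 CPM in the untreated libraries, 1.32 and 1.09 with IFN-γ, 3.23 and 3.20 with AX-0085, and 2.91 and 2.47 with both. No library of a treated group reached the untreated range, and the IFN-γ libraries lay below all others. PLAT fell with IFN-γ by -2.61 log2 units (SE 0.20, edgeR adjusted p = 8.57e-08), to 0.164 of its untreated level. AX-0085 alone also lowered it, by -1.18 on the log2 scale (SE 0.16, edgeR adjusted p = 4.39e-05). In cells that had received IFN-γ, addition of AX-0085 was followed by a rise of 1.19 on the log2 scale (SE 0.23, edgeR adjusted p = 0.000542). It remained below untreated cells with both agents (log2 fold change -1.42, SE 0.16, edgeR adjusted p = 8.59e-06).

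AX-0085 thus had opposite signs for PLAT with and without IFN-γ, and the test of that difference is the interaction. The interaction was 2.37 on the log2 scale (95% confidence interval 1.76 to 2.98, edgeR adjusted p = 1.60e-05). With AX-0085 present, IFN-γ gave a log2 difference of -0.24 (95% confidence interval -0.64 to 0.16), which did not pass the test and does not show that PLAT was equal in those groups.

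The urokinase receptor went the other way. PLAUR, at chr19:43646095-43670547 on the minus strand, encodes the surface protein that holds urokinase. Its level was 26.7 and 24.0 CPM in untreated libraries, 58.4 and 50.8 with IFN-γ, 15.8 and 14.5 with AX-0085, and 14.8 and 14.5 with both. The IFN-γ libraries were the highest and the untreated ones came next, while the AX-0085 libraries and those with both agents overlapped. PLAUR rose with IFN-γ by 1.10 log2 units (SE 0.09, edgeR adjusted p = 1.38e-07), or 2.15-fold. Scaling by library size alone, which lowers the median of all genes by 0.12 on the log2 scale in this comparison, gave 0.98, under the 2-fold limit of a call. Added to IFN-γ, AX-0085 lowered PLAUR by -1.90 log2 units (SE 0.09, edgeR adjusted p = 1.65e-09).

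With AX-0085 alone PLAUR differed from untreated cells by -0.75 on the log2 scale (edgeR adjusted p = 2.47e-05), past the adjusted p but under the 2-fold limit. With both agents the difference from untreated cells was -0.79 (edgeR adjusted p = 1.24e-05), also under that limit. The IFN-γ effect in the presence of AX-0085 was -0.05 (95% confidence interval -0.26 to 0.17). The interaction was -1.15 (95% confidence interval -1.44 to -0.86, edgeR adjusted p = 1.35e-05), so the effect of IFN-γ on PLAUR was smaller with the compound than without it.

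Promoter sequence was searched for 7 of the 8 genes, in RefSeq windows of 250 bases before a transcript start (GRCh38.p14, 9 windows). On both strands, 5 motifs were searched. The set of windows searched held none of PLAT, so the promoter of that gene was not examined. Neither the GAS motif (TTCNNNGAA) nor the ISRE core (2 GAAA blocks with 2 bases between them) matched in any of the 9 windows. The background was all 35116 windows of the set searched, which need not cover every gene. Of these, 6.57% hold the GAS motif and 3.02% the ISRE core. The AP-1 motif (TGANTCA) matched in 3 windows, those of PLAUR, ANXA2 and SERPINB2, against 6.57% of all windows. The matches in PLAUR and ANXA2, a gene that moved with IFN-γ by more than 2-fold and one that did not, are shown with the motif in capitals. The PLAUR stretch is chr19:43670337-43670366 on the minus strand, with the motif at -186 to -180 from the transcript start, and the ANXA2 stretch is chr15:60398095-60398124 on the minus strand, with the motif at -127 to -121.
PLAUR: tcacaactccaTGAGTCAgggccgagccag
ANXA2: gcgggccggggTGAGTCAcccctgacttgg
A match describes letters in a window and not a bound site, and a window without a match says nothing about the factor. All 250 bases of the PLAUR window also lie in annotated exons of other transcripts.

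The measured inhibitor was lowest with both agents. SERPINE2, at chr2:223975045-224039318 on the minus strand, encodes protease nexin-1, which inhibits thrombin, urokinase and tissue-type activator. Its level was 89.2 and 90.2 CPM in untreated libraries, 53.6 and 55.9 with IFN-γ, 45.9 and 47.0 with AX-0085, and 27.8 and 27.7 with both. The 4 groups did not overlap, and both agents alone gave levels between those of untreated cells and those with both. Each agent alone gave a difference under the 2-fold limit, of -0.71 with IFN-γ (edgeR adjusted p = 4.88e-07) and -0.95 with AX-0085 (edgeR adjusted p = 9.58e-08). With both, SERPINE2 fell by -1.69 log2 units (SE 0.07, edgeR adjusted p = 5.99e-10) against untreated cells. AX-0085 added to IFN-γ gave -0.98 (edgeR adjusted p = 4.50e-08), just under the limit, and the DESeq2 Wald test gave -1.03 and a call.

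For SERPINE2 the agents were close to additive on the log2 scale. The interaction was -0.03 (95% confidence interval -0.24 to 0.17, edgeR adjusted p = 0.808), an interval that leaves out the interactions of PLAT and PLAUR. Its sign turned under other settings, with values up to 0.09.

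Per kilobase of MANE Select transcript (the main annotated transcript), the level of SERPINE2 was 17.1 ± 2.61 (SD, n = 2) times that of PLAT in untreated cells, 63.3 ± 10.6 times with IFN-γ, 19.9 ± 0.459 times with AX-0085 and 14.3 ± 1.59 times with both. The 2 IFN-γ libraries, at 55.8 and 70.8, stood above all others, which lay between 13.2 and 20.2.

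Of the docking genes, S100A10 fell with IFN-γ while ANXA2 and PLGRKT stayed within 2-fold. S100A10, at chr1:151982915-151993859 on the minus strand, encodes the plasminogen-binding light chain of the annexin A2 complex. Its level was 343 and 387 CPM in untreated libraries, 150 and 140 with IFN-γ, 263 and 271 with AX-0085, and 176 and 178 with both. The groups did not overlap, and every treated library lay below the untreated ones. S100A10 fell with IFN-γ by -1.33 log2 units (SE 0.07, edgeR adjusted p = 1.61e-09), to 0.397 of its untreated level. With both agents it was lower than in untreated cells by -1.05 (edgeR adjusted p = 3.33e-08), a value close to the limit that came to -0.96 without untreated replicate 2 and -0.998 without replicate 1 of both agents.

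AX-0085 alone gave a difference of -0.45 for S100A10 (edgeR adjusted p = 7.89e-05), and AX-0085 added to IFN-γ one of 0.28 (edgeR adjusted p = 0.00227). Both were under the 2-fold limit. The interaction was 0.73 (95% confidence interval 0.53 to 0.94, edgeR adjusted p = 3.11e-05), so the drop with IFN-γ was smaller with AX-0085 present, where it was -0.60 (edgeR adjusted p = 2.70e-05). The 250 bases before its RefSeq start (chr1:151993860-151994109, minus strand) are shown because S100A10 is the docking gene that fell and its window lies in no annotated exon. They held none of the GAS, ISRE core, AP-1 and TATA box (TATAAA, held by 10.7% of all windows) motifs. They held 1 GC box (GGGCGG, in capitals), which 42.6% of all windows hold.
S100A10: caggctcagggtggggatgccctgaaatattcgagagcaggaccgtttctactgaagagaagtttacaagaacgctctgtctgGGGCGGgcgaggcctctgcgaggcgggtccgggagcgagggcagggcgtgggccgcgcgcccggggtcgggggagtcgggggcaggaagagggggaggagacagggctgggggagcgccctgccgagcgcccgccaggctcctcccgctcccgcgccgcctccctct

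ANXA2, at chr15:60347134-60402883 on the minus strand, encodes annexin A2, the membrane-binding partner of S100A10. Its level was 3783 and 3998 CPM in untreated libraries, 2905 and 2583 with IFN-γ, 4034 and 3948 with AX-0085, and 3276 and 3248 with both. The untreated and AX-0085 libraries overlapped, and the IFN-γ libraries were lowest. The log2 difference with IFN-γ was -0.50 (95% confidence interval -0.67 to -0.33, edgeR adjusted p = 7.27e-05), which lies above the whole interval of S100A10 (-1.48 to -1.18). AX-0085 alone gave 0.04 (95% confidence interval -0.13 to 0.21), AX-0085 added to IFN-γ gave 0.25 (edgeR adjusted p = 0.0127), and the interaction was 0.21 (95% confidence interval -0.03 to 0.45).

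Reads of ANXA2 can be shared with its processed copies. ANXA2P2 had between 571 and 1221 counts, 0.957% to 1.13% of the ANXA2 counts of the same library, ANXA2P1 had 0 counts and ANXA2P3 at most 1. ANXA2P2 differed by -0.43 with IFN-γ (edgeR adjusted p = 0.000613), and it is uncertain how many of its reads, and of ANXA2's, belong to the other gene.

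The 2 partners of the complex moved apart. Per kilobase of MANE Select transcript, the level of ANXA2 was 4.61 ± 0.221 (SD, n = 2) times that of S100A10 in untreated cells, 8.16 ± 0.251 times with IFN-γ, 6.45 ± 0.241 times with AX-0085 and 7.97 ± 0.111 times with both. The ratio in each treated library, from 6.28 to 8.34, was above that of both untreated libraries, 4.46 and 4.77. The IFN-γ libraries overlapped those with both agents.

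PLGRKT, at chr9:5357971-5437925 on the minus strand, encodes a plasminogen receptor with a lysine at its end. Its level was 24.8 and 25.6 CPM in untreated libraries, 34.8 and 28.9 with IFN-γ, 21.9 and 20.2 with AX-0085, and 28.6 and 26.6 with both. The AX-0085 libraries were lowest, and the libraries with both agents lay beside the lower IFN-γ library. The log2 difference was 0.33 with IFN-γ (95% confidence interval 0.13 to 0.54, edgeR adjusted p = 0.00726), -0.26 with AX-0085 alone (95% confidence interval -0.47 to -0.05, edgeR adjusted p = 0.0362) and -0.20 for AX-0085 on top of IFN-γ (edgeR adjusted p = 0.0814). With AX-0085 present, the IFN-γ difference was 0.40 (95% confidence interval 0.19 to 0.60, edgeR adjusted p = 0.00667), and the interaction was 0.06 (95% confidence interval -0.23 to 0.36). No comparison of PLGRKT reached 2-fold.

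The order of the levels per kilobase of MANE Select transcript was ANXA2 (2503 CPM per kb), S100A10 (544), SERPINE2 (40.3), PLGRKT (25.7), PLAUR (18.5) and PLAT (2.39) in untreated cells, with no overlap between neighbours. With IFN-γ PLAUR moved to the third place (39.9 CPM per kb) above PLGRKT (32.4) and SERPINE2 (24.6), and no neighbours overlapped. With AX-0085 PLGRKT (21.4) and SERPINE2 (20.9) overlapped between libraries. With both agents the order was that of AX-0085 alone, and SERPINE2 (12.5) stood next to PLAUR (10.7). PLAT was the lowest in each group. The order depends on the length used. With all annotated exons, S100A10 (361 CPM per kb) stood above ANXA2 (336) in untreated cells, and PLGRKT (16.4) stood above SERPINE2 (10.0).

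**Figure D3:**
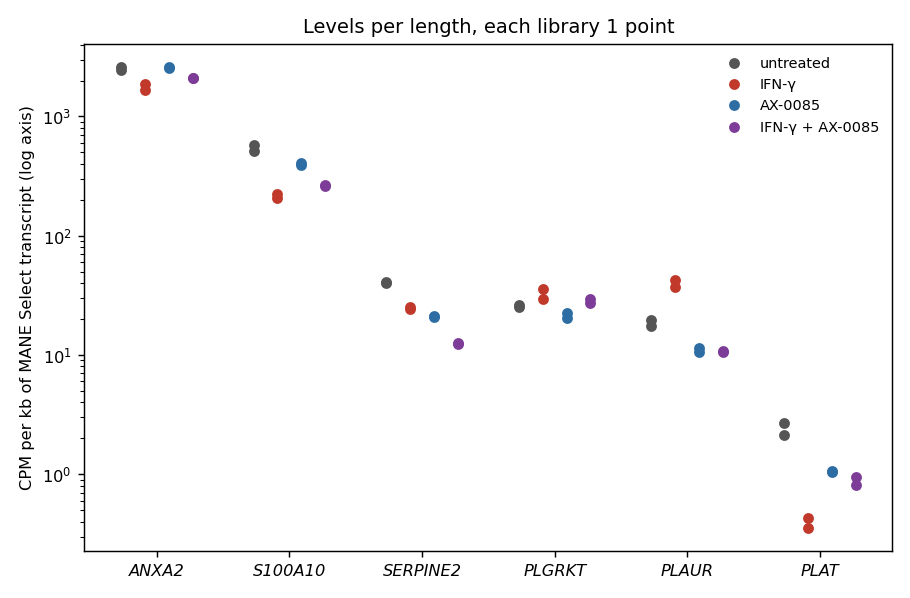
CPM per kb of MANE Select transcript (y axis, log scale) for 6 of the genes, with 1 point for each library and a color for each group. PLAUR passed PLGRKT and SERPINE2 in the 2 IFN-γ libraries, and PLAT was lowest in each group.

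In the plot of levels per length, the distance between ANXA2 and PLAT stays larger than any change within a gene, and PLAT shows the widest spread of its 4 groups, from 0.393 to 2.39 CPM per kb in their means.

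Over the 8 genes, calls required an adjusted p under 0.05 and a change of more than 2-fold. With IFN-γ, 1 of the 8 was called higher (PLAUR), where 10.3% of 15066 tested genes were, and 3 were called lower (PLAT, S100A10 and PLAU), where 17.2% were. The PLAU call (log2 fold change -1.79, edgeR adjusted p = 0.0424) rests on 18 and 13 against 2 and 5 counts. PLAU passed the filter on low counts through its untreated libraries, so a lower value in the others was built in. DESeq2 gave it an adjusted p of 0.175. With AX-0085 added to IFN-γ, PLAT was called higher (background 16.5%) and PLAUR lower (background 8.28%), and 5 tested genes were not called. With AX-0085 alone, none was called higher (background 6.41%) and PLAT was called lower (background 5.62%).

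With both agents against AX-0085 alone, none of the 8 was called in either direction by edgeR (background 1.79% higher and 1.73% lower). Of the 8, 4 passed the adjusted p without the fold limit, as did 5228 of 15066 tested genes. With both agents against untreated cells, none was called higher (background 7.51%) and PLAT, S100A10 and SERPINE2 were called lower (background 7.23%). DESeq2 also gave 0 for each of these counts of 0 by edgeR. At an unadjusted p under 0.05, edgeR gave 1 higher and 3 lower for both agents against AX-0085, and 0 higher for AX-0085 alone and for both agents against untreated cells. The interaction was called higher for PLAT (background 12.1%) and lower for PLAUR (background 6.46%). Without PLAU, the median log2 difference of the other 6 tested genes was -0.61 with IFN-γ, against -0.06 for all tested genes, 0.03 against 0.03 for AX-0085 on top of IFN-γ, and -0.60 against 0.01 with AX-0085 alone. The comparison of IFN-γ with untreated cells and that of both agents with IFN-γ share the IFN-γ libraries, so an opposite sign in them is no independent result.

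**Figure D4:**
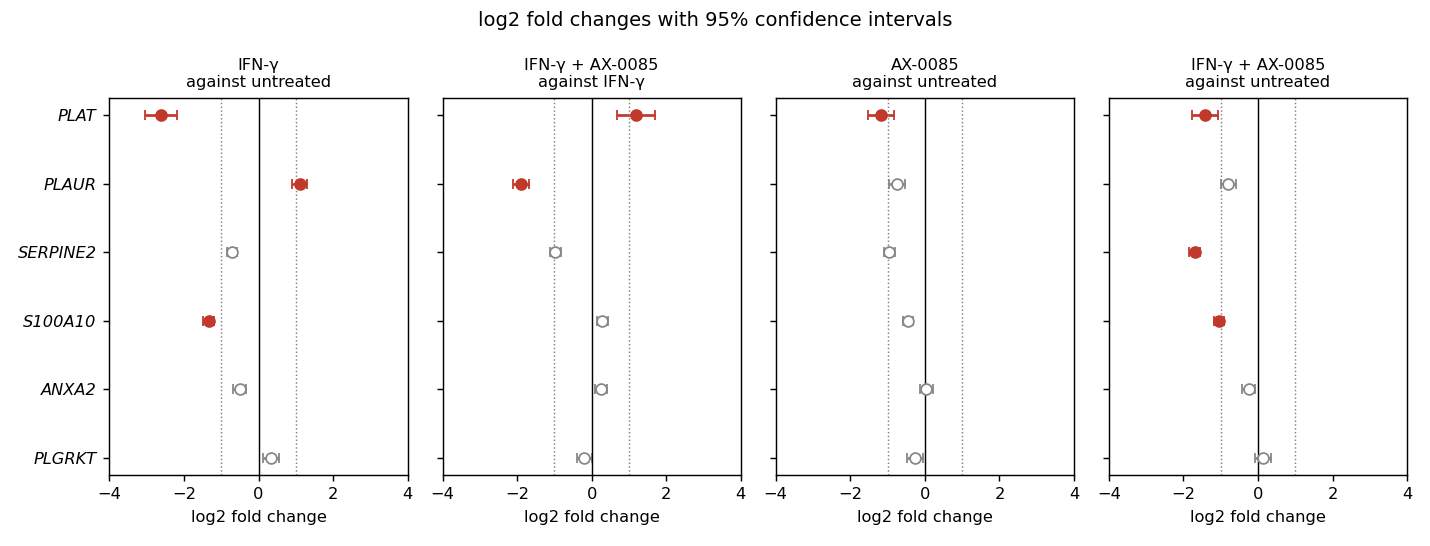
Log2 fold changes (x axis) of 6 of the genes (y axis) in 4 comparisons, with 95% confidence intervals from the edgeR fit and dotted lines at 2-fold. Filled red points were called and open grey points were not. PLAT (-2.61) shows the widest change with IFN-γ, and PLAUR is on the right with IFN-γ (1.10) and on the left in the other 3 comparisons.

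The plot of log2 fold changes leaves out PLAU, whose intervals span several log2 units. Its interval with IFN-γ ran from -3.37 to -0.22, and that of AX-0085 added to IFN-γ ran from -1.60 to 2.28.

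Other genes of the plasminogen system were taken from a list of 25, of which 4 had 0 counts and 15 were tested. PLG, the gene of plasminogen itself, had at most 2 counts in a library. The 4 genes without counts (CLEC3B, CPB2, HRG and VTN) have 99.5% to 100% of their exon bases inside other genes. With IFN-γ, 6 of the 15 were called lower, where 17.2% of all tested genes were, and the others were not called. These were SORL1 (log2 fold change -3.01), an endocytic receptor, SERPINI1 (-2.69), the gene of neuroserpin, SERPINF2 (-2.63), the gene of the plasmin inhibitor α2-antiplasmin, MELTF (-1.45), KRT8 (-1.40), a keratin that binds plasminogen at the surface, and HMGB1 (-1.21). The median of the 15 was -0.44. KRT8 is also on the list of A549 markers. SERPINI1 had at most 32 counts in a library and 1 and 3 with IFN-γ. It passed the filter on low counts through the other groups, so a lower value with IFN-γ was built in.

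With AX-0085 on top of IFN-γ, 6 of the 15 were called higher, where 16.5% of all tested genes were. These were SERPINF2 (log2 fold change 3.58), SERPINI1 (3.06), SORL1 (3.02), LRP1 (2.64), a receptor that clears complexes of activators and serpins, MRC2 (1.60), which binds the urokinase receptor complex, and MELTF (1.03). The rise of SERPINI1 started from 1 and 3 counts with IFN-γ and was built in by the filter in the same way. The call of MELTF was lost with the DESeq2 Wald test (0.99). SERPINF2 stood at 5.46 and 4.72 CPM in untreated libraries, 0.792 and 0.844 with IFN-γ, 15.8 and 16.5 with AX-0085, and 10.3 and 9.35 with both. Its levels with both agents were thus above those of untreated cells. With AX-0085 alone, SERPINF2 (1.66) and LRP1 (1.61) were called higher, 2 of the 15, where 6.41% of all tested genes were.

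LRP1 stood at 42.9 and 32.2 CPM in untreated libraries, 21.0 and 26.2 with IFN-γ, 123 and 107 with AX-0085, and 152 and 143 with both. Both groups with AX-0085 lay above both groups without it.

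Among 27 relatives of the docking genes (annexins and S100 proteins), 19 were tested, of which 3 were called higher and 6 lower with IFN-γ (10.3% and 17.2% of all tested genes). These counts include S100A5 (2 and 2 counts with IFN-γ) and S100A11 (5 and 1 in untreated libraries). Both passed the filter on low counts through groups where they were higher, so their differences were built in. All 563 exon bases of the main transcript of S100A11 lie inside the span of an opposite-strand gene, as in PLAU. The counts of S100A11 are therefore not read as the level of its mRNA. Where the mean log2 CPM was no lower than 2, S100P had the largest rise (log2 fold change 4.07, SE 0.13) and ANXA13 the largest fall (-5.28, SE 0.25). With AX-0085 on top of IFN-γ, 6 were called higher and 4 lower (16.5% and 8.28% of all tested genes). The 6 include S100A5, whose rise was built in by the filter in the same way. The 4 include ANXA10, whose mean was 0.711 CPM in the IFN-γ group but 0.282 CPM after AX-0085 was added. ANXA10 passed the filter through the groups without AX-0085, so its fall was built in too. ANXA13 (6.06) had the largest rise and, above the same expression limit, ANXA3 (-2.21) the largest fall, while S100A2, below that limit with at most 115 counts in a library, stood at -2.25. ANXA13 had 3 and 4 counts in the IFN-γ libraries, so its size there depends on few reads. With AX-0085 alone, 3 genes were called in each direction (6.41% higher and 5.62% lower of all tested genes), with S100P at 2.10 and ANXA3 at -1.07, and S100A2, which fell further than ANXA3, again below the expression limit. S100A10 and ANXA2 thus stood between relatives that moved much further in both directions.

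Of 12 relatives of SERPINB2, 4 were tested. SERPINB8 was the one called with IFN-γ (log2 fold change 2.92), where 10.3% of all tested genes were called higher. It was also the one called when AX-0085 was added (-3.57), where 8.28% of all tested genes were called lower. Of 21 matrix metalloproteinases and their inhibitors, proteases that work beside plasmin on the matrix, 9 had 0 counts and 7 were tested. Of the 9, 6 have every exon base inside another gene, and their 0 counts are not read as absence of the transcript. With IFN-γ, 3 were called lower (17.2% of all tested genes), among them MMP15 (-2.92), and 3 were called higher with AX-0085 on top (16.5% of all tested genes), among them MMP15 (1.57). Both counts include MMP11, which had 0 and 2 counts with IFN-γ and passed the filter through the other groups, so its differences were built in. With AX-0085 alone MMP15 was called lower (-1.09), where 5.62% of all tested genes were.

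The genes whose 4 group means were nearest to those of a member were found by the Euclidean distance of centred log2 CPM over the 4 groups (8 libraries). They were EIF5A2 (distance 0.07) and FRMD6 (0.10) for PLAUR, PRADC1 (0.20) and SCD (0.25) for PLAT, ANKRD30A (0.08) and C6orf141 (0.15) for SERPINE2, ITGB3BP (0.05) and NLRP2 (0.08) for S100A10, ATF7IP2 (0.03) and RSRP1 (0.04) for ANXA2, WDR18 (0.03) and DGKG (0.04) for PLGRKT, and CDCA3 (0.28) and MCM10 (0.33) for PLAU. The pattern nearest to PLAUR, that of EIF5A2, stood 1.23 above its own mean with IFN-γ and 0.67 below it with both agents. A distance over 4 means describes likeness in these libraries only.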

How the data were processed

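The 8 RNA-seq libraries of A549 cells fall into 4 groups of 2 by their labels. Per the submitters' processing notes and the study's methods, the authors trimmed reads with Trim Galore 0.6.7, mapped them to GRCh38 with STAR 2.7.9a and counted them per gene with featureCounts, and they deposited the whole-number counts without normalization. The annotation release, the strand setting and the handling of reads with several positions are not given in the sources used here, so overlaps were taken from GENCODE 44.

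In R 4.3.3, edgeR 4.0.16 kept 15066 genes (filterByExpr) and scaled the libraries by TMM (factors 0.916 to 1.04). A quasi-likelihood model of the 4 groups was fitted to all libraries. A gene was called where its p, adjusted after Benjamini and Hochberg, was under 0.05 and its change exceeded 1 on the log2 scale, the limits of the study. Standard errors are the log2 fold change divided by the root of its F statistic. Group log2 means used a prior count of 0.125. The libraries of a group differed by more than counting noise (chi-square per degree of freedom 8.55 to 27.7), and each was counted as a replicate. That spread may be technical and does not show that the libraries came from separate cultures. The edgeR step was tested on simulated counts for IFN-γ against untreated (11348 genes, 200 changed), where 100% of the changed genes and 0 unchanged genes were called. Only well-counted genes were simulated, with the same spread for every gene and with planted changes beyond the limit of a call. It thus checks that the code runs as meant, and says nothing of genes with low counts, such as PLAU, or of changes near the limit.

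The members and lists were chosen with earlier results of these data known. Genes named were the 8 members, the ANXA2 copies, for each list other than markers and copies and each of the first 3 comparisons the largest called rise and fall at a mean log2 CPM no lower than 2, and the 2 nearest patterns for each member that passed the filter. 1 item that the rule names is not reported here. The other called genes of the plasminogen list, the genes without counts, S100A2 and the levels of LRP1 were named after their values were seen. There were 18 alternatives, including DESeq2 1.42.0, and the blocks with swapped numbers were chosen after seeing the data.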

Additional observations from a re-analysis of the deposited data

Results flagged for a closer look

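3 results were flagged because the effect of IFN-γ differed between cells without and with AX-0085, by the interaction term of the edgeR quasi-likelihood test over all genes. The interaction was 2.37 on the log2 scale for PLAT (edgeR adjusted p = 1.60e-05), whose IFN-γ effect was -2.61 without AX-0085 and -0.24 with it. For PLAUR it was -1.15 (edgeR adjusted p = 1.35e-05), with IFN-γ effects of 1.10 and -0.05. For S100A10 it was 0.73 (edgeR adjusted p = 3.11e-05), with effects of -1.33 and -0.60. In all 3 genes the effect was smaller in size with AX-0085 and had the same sign, except in PLAUR. The flag used an adjusted p under 0.05 without the fold limit, and 7577 of 15066 tested genes had an interaction that passed it. The interaction of S100A10 was under 2-fold and was not a call. With the 2-fold limit added, 12.1% of all tested genes had an interaction called higher and 6.46% one called lower. With 2 libraries in a group, single libraries could not be screened for values far from the rest of their group.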

How the results depend on the processing

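Over 18 alternatives, 1484 of 1551 values of single genes kept their direction and their side of the threshold, 27 lost a call, 31 gained one and 9 turned sign. The tally holds the tested members in all 6 comparisons, and other named genes only in comparisons where they had been called. Those other genes could not gain a call and mostly had large changes, so the tally is no measure of stability for genes in general. All 6 comparisons of PLAT, and the interaction of PLAUR, kept direction and call throughout. Taking the adjusted p alone, 7 members were called in place of 4 with IFN-γ and 5 in place of 2 when AX-0085 was added. It gave 5 in place of 1 with AX-0085 alone, 4 in place of 0 for both against AX-0085 and 5 in place of 3 for both against untreated. Of the other plasminogen genes, 13, 13 and 9 were called in place of 6, 6 and 2 in the first 3 comparisons. By that rule 10259, 10019, 8028, 5228 and 8573 of the 15066 tested genes were called, in the order of the comparisons given for the members. With AX-0085 alone, 2 members were called when each gene with 1 count was kept, when only the groups compared were fitted, and with a replicate block after swapping the untreated numbers. Leaving out single libraries gave 1 to 2, with PLAU as the second gene without AX-0085 replicate 1 or without either replicate of both agents.

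The values that turned sign were not called before or after. PLAU gave -1.72 for AX-0085 added to IFN-γ without replicate 1 of both agents (range without single libraries -1.72 to 0.98), -0.63 (without AX-0085 replicate 2) and -1.82 (without replicate 1 of both) for both against AX-0085 (range -1.82 to 2.29), and -0.069 for the interaction (without replicate 1 of both, range -0.069 to 4.08). PLAUR gave 0.019 for both against AX-0085 without AX-0085 replicate 1 (range -0.104 to 0.019). The interaction of SERPINE2 gave 0.086 with library size alone and 0.0062 with at least 10 counts in every library, and that of PLGRKT gave -0.088 without IFN-γ replicate 2 and -0.011 without replicate 1 of both (range -0.088 to 0.192). The cause was not tested.

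Deviations of same-numbered libraries correlated between -0.351 and 0.345 over 6 pairs of groups, with no common sign. These values cannot tell whether same-numbered libraries were prepared together, and the main model left the replicate numbers out. With the replicate block 4 members were called with IFN-γ, as without it. With the untreated numbers swapped 4130 genes were called with IFN-γ, and with those of both agents swapped 4118, against 4137 without a block. Scaling by library size alone moved the median of all genes by -0.12 with IFN-γ and 0.12 when AX-0085 was added. The low counts of PLAU limit every value of that gene, and its call with IFN-γ was lost without any 1 of the 4 libraries compared (adjusted p 0.0765 to 0.162).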
